A study of Homo sapiens with 6 samples.

Results

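FAM107A, ILDR2 and RAD51B are 3 genes of the 36532 in the transcript files, and each holds or borders an LTR element that led the LTR expression of at least 1 cell line. They were found by gene symbol, and their LTR elements by position inside each gene's span, which gave 40 transcripts and 166 of the 720177 annotated LTR elements. A further 2 elements, 1 at the end of FAM107A and 1 at the end of ILDR2, reach past the gene and are given separately. The genes were selected on values measured in these libraries, so all levels below are a description with no test.

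The libraries came from 4 established cell lines of atypical teratoid rhabdoid tumor (AT/RT), a childhood brain tumor defined by loss of SMARCB1: CHLA 06, which the study places in molecular group 2, and the group 1 lines CHLA 02, CHLA 04 and CHLA 05. All were grown untreated in DMEM:F12 medium with EGF, basic FGF and B-27, and stranded total RNA was sequenced. For CHLA 04 and CHLA 06 there were 2 technical replicates, and for CHLA 02 and CHLA 05 a single library (n = 1). With 1 biological sample per line, differences between lines have no replicate check, and the SD over technical replicates covers technical spread alone.

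FAM107A encodes a small actin-associated protein, also known as DRR1, that is expressed in astrocytes and outer radial glia and is induced by glucocorticoids. ILDR2 encodes an immunoglobulin-like membrane protein of the angulin family, whose members recruit tricellulin to the corners where 3 epithelial cells meet. RAD51B encodes a DNA repair protein of homologous recombination, which mends broken DNA from an intact copy. LTR elements are remnants of endogenous retroviruses. A long terminal repeat carries the signals that once started and ended retroviral transcription, and many such copies now lie in introns and in the last exons of human genes.

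The libraries held 10265899 to 20520229 recovered reads on transcripts and 355302 to 511408 on LTR elements. Of the neural progenitor markers, VIM was at 4629 to 19464 TPM (reads per base of transcript, scaled to the same total in each library), NES at 5.21 to 27.6, and SOX2 at or below 4.03, and PAX6 was at 15.8 to 36.9 in the group 1 libraries and at or below 0.937 in CHLA 06. Of the neuronal markers, TUBB3 was at 205 to 455 TPM and DCX at or below 0.654, and MAP2 was at 298 to 915 in the group 1 libraries against 7.20 and 5.41 in CHLA 06. The fibroblast marker COL1A1 was at 600 and 459 TPM in CHLA 06 and 387 in CHLA 02, against 0.679 to 11.5 in CHLA 04 and CHLA 05, and the epithelial marker KRT8 was at 81.6, 79.3 and 55.1 against at most 0.188. DCN and KRT18 were also higher in CHLA 06 and CHLA 02 than in the other lines, as were EPCAM and LUM at lower levels. The epithelial CDH1 went the other way, at 12.4 TPM in CHLA 05 and at or below 0.0739 elsewhere. The part of these markers in the results was not tested. Among blood markers, the pan-leukocyte PTPRC stayed at or below 0.224 TPM. CD68 was at 6.36 TPM in CHLA 02 and 6.34 and 22.6 in CHLA 06, against at most 0.897 elsewhere. The endothelial PECAM1 stayed at or below 0.0378 TPM, and VWF was at 3.70 and 2.06 in CHLA 04 and at most 0.778 elsewhere. SMARCB1 RNA was at 13.5 to 26.2 TPM, although the paper describes these lines as lacking SMARCB1 expression. Protein was not measured here. The CHLA 02 library stood between CHLA 04 and CHLA 06. Of 214 genes at 20 TPM or more in CHLA 06 and at least 20-fold lower in both CHLA 04 and CHLA 05, its median level was 54.2% of that in CHLA 06. For 43 genes chosen in the same way for CHLA 04 the median was 36.2%, and for 68 genes chosen for CHLA 05 it was 0.550%. No gene at 20 TPM or more was 10-fold above every other line in CHLA 02, against 113 in CHLA 05 and 1 each in CHLA 04 and CHLA 06. Whether the CHLA 02 library held RNA of more than 1 line was not tested, and the counts of pairs and list genes are also given without it. In bulk RNA, fewer cells of a type and less RNA per cell cannot be told apart.

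The annotated ends of FAM107A and ILDR2 lie inside LTR elements of the same strand. The last base of the most abundant FAM107A transcript, ENST00000360997, falls in an MLT1J element on chromosome 3, and that of ILDR2, ENST00000271417, falls in an MLT1A element on chromosome 1. In GENCODE v44 the FAM107A transcript has the same last base, and that of ILDR2 ends 4 bases further on, still inside MLT1A, while both have other first bases there. Another ILDR2 transcript, ENST00000414590, ends in a MER39 element. Of 22532 genes with a read, 2.79% had a most abundant transcript that ended in an LTR element of its own strand. The last 30 bases of both transcripts are shown because they hold the polyadenylation hexamer, AATAAA, in capitals, within LTR sequence (GRCh38, minus strand, chr3:58564117-58564146 and chr1:166908191-166908220).
FAM107A end in MLT1J: gtaAATAAAATAAAtccctctttgtttaaa
ILDR2 end in MLT1A: aactgtgagaAATAAAtttctgatatttaa
The FAM107A end holds 2 overlapping copies, the first of which ends 21 bases before the last base, and the ILDR2 copy ends 14 bases before it. The reverse complement of AATAAA, or of the variant ATTAAA, was in neither window. On the RNA strand AATAAA stood in the last 30 bases of 42.8% of the most abundant transcripts of all genes.

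In RAD51B the leading element runs against the gene. It is THE1C-int, the internal part of a THE1 retrotransposon, between 2 THE1C repeats on the minus strand of chromosome 14. The annotated start of an antisense RNA of the same strand, CTD-2566J3.1, lies 2 bases before another LTR element that its first exon overlaps, and is shown (GRCh38, chr14:68130147-68130246, minus strand) with the bases of the MLT1E3 element in capitals.
antisense RNA start: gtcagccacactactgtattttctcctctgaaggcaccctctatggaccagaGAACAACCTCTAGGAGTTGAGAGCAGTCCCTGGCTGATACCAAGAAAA
The upstream and downstream THE1C repeats, of 355 and 373 bases, were identical at 309 of 381 aligned positions, or 81.1%.

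FAM107A (ENSG00000168309, chr3:58564117-58627610, minus strand) was high in the group 1 lines and nearly absent from CHLA 06. Gene TPM was 224 for CHLA 02, 792 and 1361 in the CHLA 04 libraries, 539 for CHLA 05, and 0.977 and 1.34 in the CHLA 06 libraries. No CHLA 06 library overlapped a library of another line, and CHLA 06 rested on 21 and 32 reads. The CHLA 04 mean was 1076 ± 402 TPM (SD, n = 2 technical replicates), and its 2 libraries lay further apart than their counting intervals, which ended at 808 and began at 1345 TPM (95% Wilson intervals, which cover counting error only). On the scale of TPM + 1, CHLA 04 was 499-fold and CHLA 05 250-fold above CHLA 06, and CHLA 02 was 104-fold above it. CHLA 04 was also 4.79-fold above CHLA 02, and 1.99-fold above CHLA 05, a gap of similar size to that between its own libraries. A difference of at least 4-fold was counted as past the fold, and FAM107A passed it in 4 of the 6 pairs of lines, or in 2 of 3 without CHLA 02. The values chose the gene, so nothing is read from that count.

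The background for such folds is given over 16343 genes that reached 1 TPM in a library. The share at least 4-fold higher in CHLA 04 than in CHLA 06 was 7.81%, and in the opposite direction it was 6.36%. The matching shares were 8.05% and 5.11% for CHLA 05 above and below CHLA 06, and 3.84% and 0.263% for CHLA 02 above and below CHLA 06. They were 4.25% and 2.62% for CHLA 05 above and below CHLA 04, 4.61% and 1.03% for CHLA 02 above and below CHLA 04, and 4.55% and 4.17% for CHLA 02 above and below CHLA 05. In any of the 6 pairs, 20.5% of genes were past the fold.

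ILDR2 (ENSG00000143195, chr1:166895711-166975482, minus strand) was highest in CHLA 05. Gene TPM was 6.26 for CHLA 02, 49.4 and 31.2 in the CHLA 04 libraries, 334 for CHLA 05, and 0.0871 and 0.624 in the CHLA 06 libraries. The 4 lines did not overlap, and the order from CHLA 05 through CHLA 04 and CHLA 02 to CHLA 06 had no neighbours closer than their spread. The CHLA 06 values rested on 4 and 16 reads. CHLA 05 was 8.11-fold above CHLA 04 and 247-fold above CHLA 06 on the scale of TPM + 1, and CHLA 04 was 30.5-fold above CHLA 06. All 6 pairs passed the fold, as did the 3 pairs without CHLA 02.

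RAD51B (ENSG00000182185, chr14:67819779-68730218, plus strand) ran the other way and varied less. Gene TPM was 30.7 for CHLA 02, 18.2 and 16.7 in the CHLA 04 libraries, 9.63 for CHLA 05, and 43.2 and 39.4 in the CHLA 06 libraries. CHLA 06 was highest and CHLA 05 lowest, and the libraries of a line did not overlap those of another. The reads behind these values were few, from 75 in CHLA 05 to 411 in a CHLA 06 library. The counting interval of CHLA 05 was 7.68 to 12.1 TPM and did not reach those of CHLA 04, which began at 14.1. CHLA 06 was 2.29-fold above CHLA 04 and 3.98-fold above CHLA 05, so no pair passed the fold. The last of these lay at the threshold, and its log2 value of 1.99 became 2.09 with a pseudocount of 0.1.

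**Figure D1:**
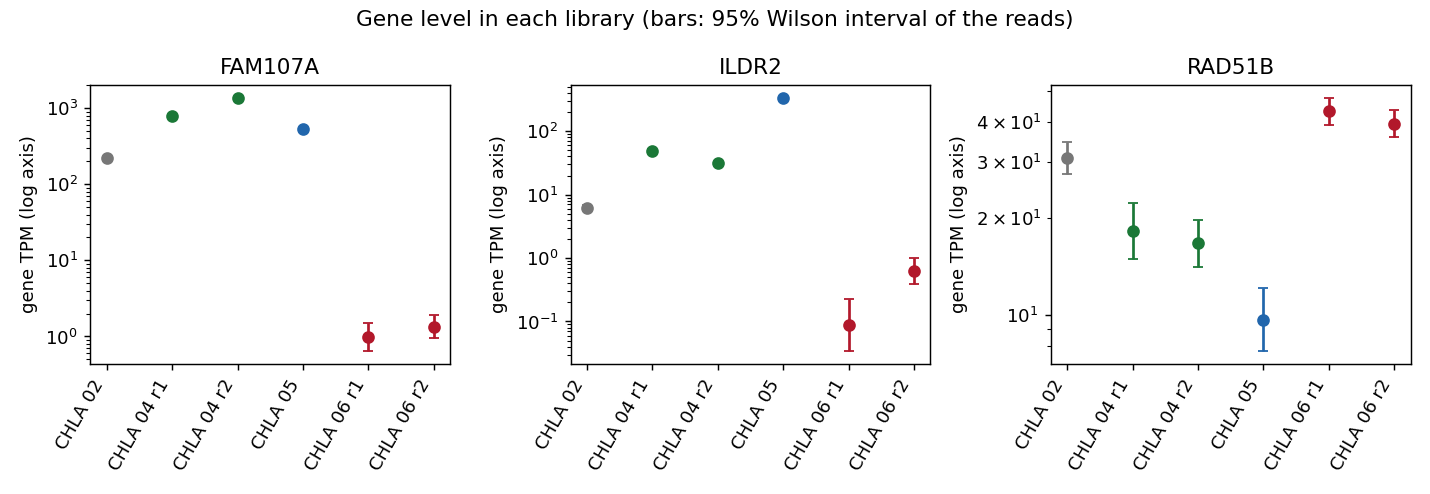
Gene TPM of FAM107A, ILDR2 and RAD51B (log axis) in each of 6 libraries, coloured by cell line, with bars for the 95% Wilson interval of the reads. FAM107A and ILDR2 were lowest in the CHLA 06 libraries (0.977 and 1.34, and 0.0871 and 0.624 TPM), where RAD51B was highest (43.2 and 39.4 TPM).

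Nearly all FAM107A reads fell on transcripts with the downstream of its start sites. The 3 transcripts that start between 58577388 and 58577764 took 98.1% of the gene's reads for CHLA 02, 97.0% and 98.7% in the CHLA 04 libraries and 94.8% in CHLA 05. Those of the far upstream start, between 58627420 and 58627610, took 1.61%, 2.76%, 1.23% and 5.00% in the same libraries. In CHLA 05 that was 524 of 10471 reads, with a 95% Wilson interval of 4.60% to 5.44%, above the value in each of the other group 1 libraries. In CHLA 06 the upstream starts had 4 of 21 and 2 of 32 reads, too few to set a share. The leading transcript ENST00000360997 held 67.8% of reads for CHLA 02, 63.2% and 75.4% in CHLA 04 and 56.8% in CHLA 05.

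ILDR2 reads came from 1 long transcript. ENST00000271417, of 13140 bases, held 94.1% of reads for CHLA 02, 92.6% and 96.0% in CHLA 04 and 97.4% in CHLA 05. Its last exon takes most of that length, and the shorter coding transcripts ENST00000525740 and ENST00000529071 had 215 and 303 reads in CHLA 05. The CHLA 06 libraries had 3 and 7 reads on the long transcript.

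RAD51B reads were spread over more transcripts, and the mix differed between lines. Of its 24 transcripts, the coding ENST00000487270 had the most reads, with 43.6% for CHLA 02, 44.7% and 41.2% in CHLA 04, 25.3% for CHLA 05 and 35.0% and 39.3% in CHLA 06. ENST00000469165, which starts inside the gene at 67887130 and has no defined coding sequence in GENCODE v44, had 71 reads for CHLA 02, 0 and 7 in CHLA 04, 8 for CHLA 05, and 111 and 91 in CHLA 06. That was 27.0% and 22.6% of the gene's reads in CHLA 06 and 24.7% in CHLA 02, against 0 and 5.34% in CHLA 04 and 10.7% in CHLA 05. The values of CHLA 06 and CHLA 02 did not overlap those of the other lines, although the upper end of the CHLA 05 counting interval, 19.7%, passed the lower end in the second CHLA 06 library, 18.8%. The coding ENST00000487861 held 22.7% of reads in CHLA 05, with 17 reads beside 19 for ENST00000487270, and 10.1% for CHLA 02, 9.57% and 9.16% in CHLA 04 and 7.06% and 3.48% in CHLA 06. Its CHLA 05 interval, 14.7% to 33.3%, overlapped those of CHLA 04. ENST00000460526 also starts at 67887130 in the annotation used, but in GENCODE v44 it is coding and starts at 67819779. It held 9.25% and 5.22% in CHLA 06 and at most 3.19% in the other libraries. ENST00000557045, which starts at 68000279, had 20 and 21 reads in CHLA 06 and at most 1 in every other library. No other RAD51B transcript held more than 9.33% in a library. Because the files assign each read to 1 transcript of several that share exons, these shares depend on the authors' counting.

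The top-ranked LTR element in each line lay in 1 of these genes. MLT1J at the end of FAM107A (chr3:58564063-58564431, 369 bases, of which 315 lie in exons) ranked 1 of all elements by TPM in CHLA 02 and both CHLA 04 libraries and 2 in CHLA 05. It had 615 reads for CHLA 02, 1026 and 4020 in CHLA 04, 1438 for CHLA 05, and 2 and 8 in CHLA 06. Its TPM, scaled over LTR elements alone, was 1655 for CHLA 02, 3713 and 9794 in CHLA 04, 4284 for CHLA 05, and 5.55 and 20.8 in CHLA 06. The group 1 lines were high and CHLA 06 low. By line means the order was that of FAM107A itself, although CHLA 05 lay between the 2 CHLA 04 libraries. Per 100 bases the element had 167 reads in CHLA 02 and 1089 in the deeper CHLA 04 library, where the exons of FAM107A had 86.6 and 553. The exon values are over all 5321 annotated exon bases, little-used exons included, and the reads came from a separate mapping. The element and exon values are thus not compared in size.

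Other LTR elements of FAM107A had few reads. All 16 inside the span are intronic, and 15 of them lie upstream of the main start at 58577764. Together the 16 had 11 reads for CHLA 02, 12 and 24 in CHLA 04, 19 for CHLA 05, and 0 and 1 in CHLA 06. The 3 sense elements, MLT1M (chr3:58572721-58572833), LTR16A1 (chr3:58603402-58603852) and THE1D (chr3:58590467-58590837), had 14, 12 and 9 reads over the 6 libraries. Among the 13 antisense elements a HERVH-int of 2312 bases had 13 reads, and an MLT1E1A that overlaps an exon of FAM3D-AS1 had 9. With at least 5 reads in a library as the limit, 4 of the 16 had reads, beside 4.81% of all elements in the genome.

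In ILDR2 the reads fell on sense elements and on no antisense element. MLT1H2 (chr1:166917730-166918098, wholly in the last exon) ranked 1 of all elements in CHLA 05. It had 21 reads for CHLA 02, 110 and 157 in CHLA 04, 1532 for CHLA 05, and 1 and 3 in CHLA 06, and its TPM in CHLA 05 was 4564. CHLA 05 was high and the other lines followed in the order of the gene. LTR78 (chr1:166911062-166911456), also in the last exon, had 5, 21, 34, 306, 0 and 1 reads in library order from CHLA 02 to CHLA 06. MLT1A (chr1:166908140-166908506), in which the gene's main transcript ends, had 7, 20, 34, 228, 0 and 0. Reads went on past that end: MLT1J2 (chr1:166903209-166903582), downstream of it in an intron of ENST00000414590, had 101 reads in CHLA 05, and MER39 (chr1:166895624-166896152), which reaches over the far end of the gene, had 81.

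All 9 antisense elements inside ILDR2, 3290 bases in all, had 0 reads in the 6 libraries, which allows up to 3 reads each in a library. MLT1K (chr1:166908975-166909521) is 1 of them and lies wholly in the same last exon as MLT1H2 and LTR78. Reads of the 2 strands were thus kept apart in these counts. Over all genes without an overlapping gene on the other strand, LTR elements over an exon had 116 reads per kb when sense and 5.49 when antisense, summed over the 6 libraries. The shares with at least 5 reads in a library were 29.5% of sense elements over exons, 19.2% of sense elements in introns, 3.47% of antisense elements over exons and 1.26% of antisense elements in introns. The 4 sense elements wholly inside ILDR2 all passed that limit and none of the antisense ones did.

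**Figure D2:**
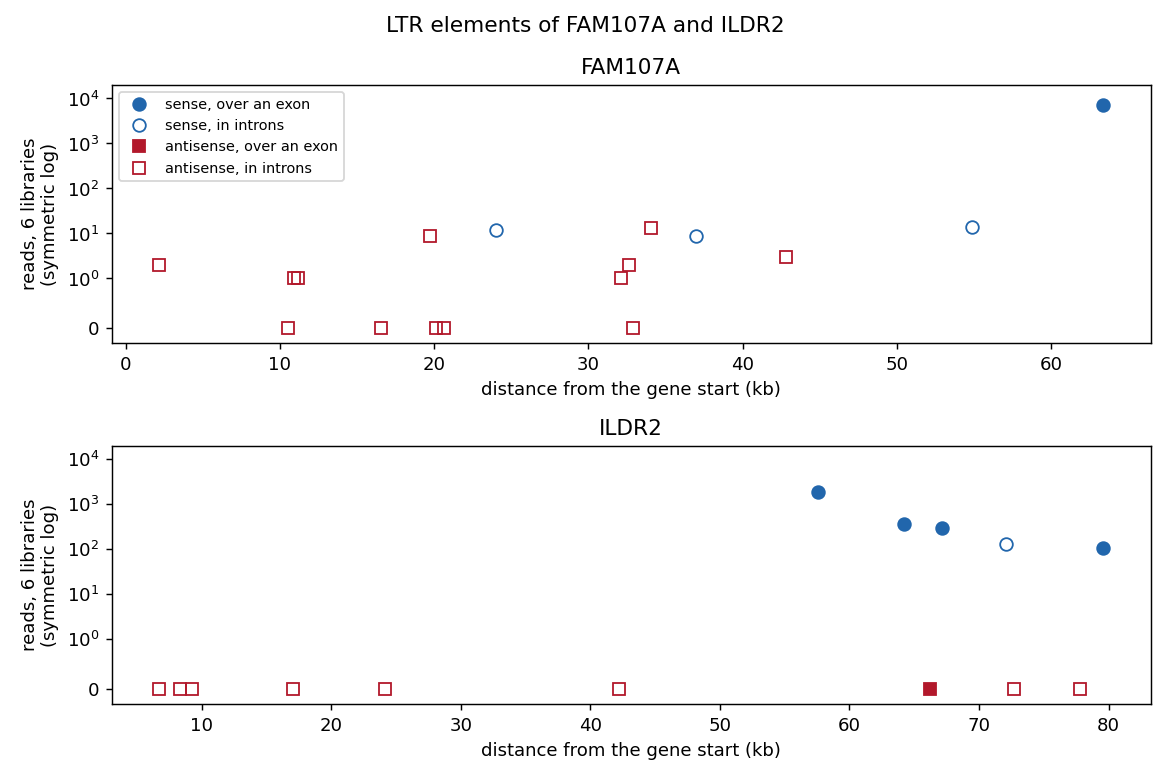
Reads summed over the 6 libraries (symmetric log axis) on each LTR element of FAM107A and ILDR2, against the distance of its middle from the gene start in kb. Circles are sense and squares antisense elements, and filled symbols overlap an exon. The FAM107A element with 7109 reads is MLT1J at the gene's end, and the 9 antisense elements of ILDR2 lie at 0.

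RAD51B held 137 LTR elements, 45 sense and 92 antisense, and nearly all of its LTR reads in CHLA 06 were antisense. The antisense elements had 1947 reads for CHLA 02, 1 and 2 in CHLA 04, 4 for CHLA 05, and 12067 and 9168 in CHLA 06. The CHLA 06 libraries put 2.69% and 1.90% of all their LTR reads there, and CHLA 02 put 0.418%. CHLA 06 and CHLA 02 stood far above CHLA 04 and CHLA 05, which were at or near 0. With at least 5 reads in a library, 29 of the 92 antisense elements passed, and 27 of the 90 in introns, beside 1.26% of all antisense elements in introns.

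THE1C-int (chr14:68101247-68102806, 1560 bases, in an intron of RAD51B) had most of these reads. It had 1328 for CHLA 02, 0 and 1 in CHLA 04, 0 for CHLA 05, and 8754 and 6421 in CHLA 06. It ranked 1 of all elements by TPM in both CHLA 06 libraries, at 5749 and 3946 TPM, and 10 in CHLA 02, at 845 TPM. The CHLA 06 mean of 4847 ± 1275 TPM (SD, n = 2 technical replicates) was at least 2293-fold higher than in CHLA 05, taking 3 reads as the floor of that library. In CHLA 02 its TPM was 17.4% of the CHLA 06 mean, where RAD51B itself was at 74.4%. The repeats on each side of it were lower. The downstream THE1C (chr14:68100874-68101246) had 185 reads in CHLA 02 and 1260 and 1013 in CHLA 06, and the upstream THE1C (chr14:68102807-68103161) had 19 in CHLA 02 and 152 and 115 in CHLA 06. A THE1A element further along the same strand (chr14:68098409-68098766) had 183, and 1043 and 880. These 4 elements, within 4.75 kb, took 88.1% of the antisense reads in CHLA 02 and 92.9% and 91.9% in CHLA 06.

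**Figure D3:**
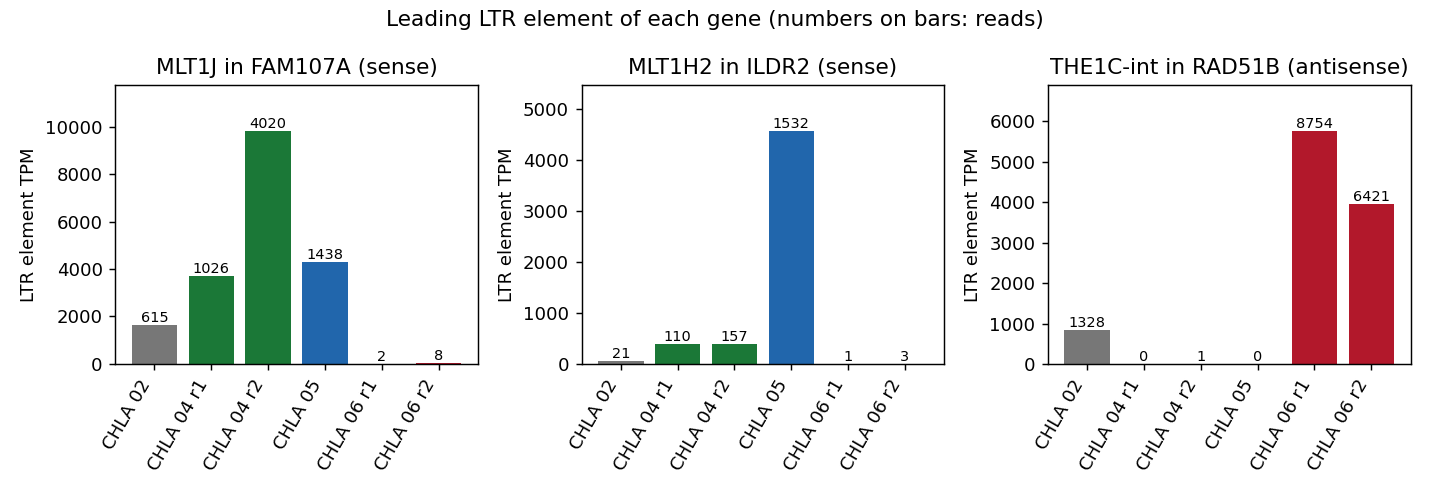
TPM over LTR elements (bars, from 0) of MLT1J at the end of FAM107A, MLT1H2 in ILDR2 and THE1C-int in RAD51B in each of 6 libraries, with reads on top of each bar. MLT1J was lowest and THE1C-int highest in CHLA 06 (8754 and 6421 reads), and MLT1H2 was highest in CHLA 05 (1532 reads).

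Around the THE1 run, lower antisense counts covered a wide stretch. The 29 antisense elements with at least 5 reads lay between 67857722 and 68161532, or 304 kb. Among them LTR1A2 (chr14:68085781-68086564) had 36 reads in CHLA 02, 1 in each CHLA 04 library, 3 in CHLA 05, and 208 and 155 in CHLA 06. THE1B (chr14:68031057-68031417) had 16, 0, 0, 0, 68 and 72 in the same order. On the far side, 44 antisense elements of 11385 bases in all had 12 reads in sum. The 88 antisense elements outside the THE1 run had 232 reads in CHLA 02, 1 in each CHLA 04 library, 3 in CHLA 05, and 858 and 739 in CHLA 06, so the line pattern was the same without it.

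The sense elements of RAD51B, all in introns, had reads in all lines. They had 469 reads for CHLA 02, 84 and 147 in CHLA 04, 53 for CHLA 05, and 897 and 934 in CHLA 06. These were 0.101% of all LTR reads for CHLA 02, 0.0236% and 0.0287% in CHLA 04, 0.0128% for CHLA 05, and 0.200% and 0.194% in CHLA 06. From high to low the lines had the order of the gene's TPM. Of the 45 sense elements 25 had at least 5 reads in a library, beside 19.2% of all sense elements in introns. MSTA (chr14:68040969-68041350) had 44, 4, 7, 3, 124 and 107 reads and MER21B (chr14:68054779-68055062) 57, 3, 4, 0, 122 and 87, in library order from CHLA 02 to CHLA 06. MER34B-int (chr14:68480483-68481099), further along the gene, had 35, 8, 17, 2, 63 and 76. Of the 2 elements over RAD51B exons, both antisense, CHLA 04 and CHLA 05 had 0 reads, CHLA 02 had 9 and CHLA 06 had 5 and 14.

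**Figure D4:**
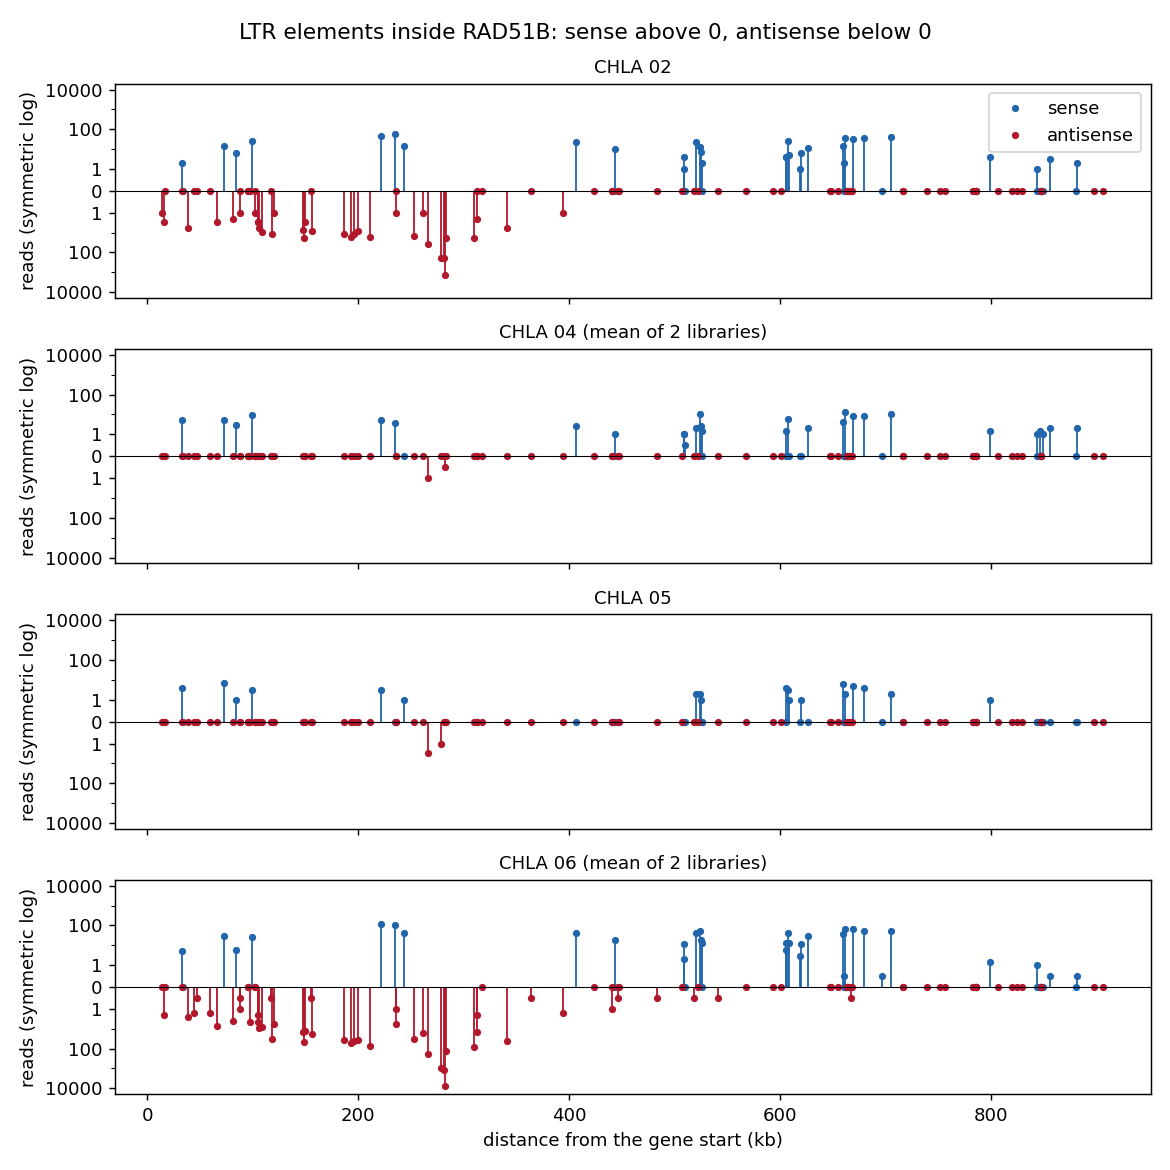
Reads on each LTR element inside RAD51B (symmetric log axis, sense above and antisense below 0) against distance from the gene start in kb, 1 panel per cell line, with the mean of 2 libraries for CHLA 04 and CHLA 06. Nearly all antisense reads in CHLA 02 and CHLA 06 lay within the first 400 kb, with the peak at THE1C-int and few in the first 100 kb. They were at or near 0 in CHLA 04 and CHLA 05, while sense elements had reads in every line.

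Set against the genes, the LTR level (reads per kb of LTR sequence at 1e+06 LTR reads in the library, divided by gene TPM) was of different order in the 3 genes. Inside RAD51B it was 14.3 and 11.3 in CHLA 06 and 3.60 in CHLA 02, against 0.280 and 0.372 in CHLA 04 and 0.305 in CHLA 05. Inside ILDR2 it was 3.27 in CHLA 05 and fell to 0.234 when elements over exons were left out. Inside FAM107A it was 0.0154 for CHLA 02, 0.00625 and 0.00505 in CHLA 04 and 0.0125 in CHLA 05, with MLT1J not included. Gene and LTR values were scaled over different totals, so the ratio compares lines and not molecules. It counts sense and antisense elements together. Inside RAD51B the antisense elements had 12067 of 12964 and 9168 of 10102 of these reads in CHLA 06, and 1947 of 2416 in CHLA 02. In CHLA 04 they had 1 of 85 and 2 of 149, and in CHLA 05 4 of 57. The RAD51B ratios in CHLA 06 and CHLA 02 thus mostly set antisense reads against the sense gene.

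An annotated antisense RNA lies in the same stretch of RAD51B. CTD-2566J3.1 (ENSG00000258837, chr14:68125004-68130196, minus strand) was at 12.5 TPM in CHLA 02, 0 in both CHLA 04 libraries and CHLA 05, and 36.8 and 44.5 in CHLA 06. It shared the lines of the antisense elements, and its first exon overlaps MLT1E3 (chr14:68129907-68130194), which had 19 reads in CHLA 02, 0 in CHLA 04 and CHLA 05, and 103 and 67 in CHLA 06. The THE1 run lies downstream of that RNA's annotated end and overlaps no exon of any gene in the files. The other antisense genes inside RAD51B, CTD-2325P2.3 and CTD-2325P2.4, were at 0 in all libraries.

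The nearest genes on each side of RAD51B also differed between lines. ZFYVE26, 3188 bases before the start of RAD51B and on the other strand, was at 57.0 TPM for CHLA 02, 44.2 and 37.9 in CHLA 04, 30.6 for CHLA 05, and 140 and 93.2 in CHLA 06. ZFP36L1, an RNA-binding protein that directs decay of AU-rich mRNAs, lies 57.4 kb past the end and was at 583 TPM for CHLA 02, 95.6 and 74.0 in CHLA 04, 79.9 for CHLA 05, and 638 and 519 in CHLA 06. RDH12 and MAGOH3P stayed at or below 0.190 TPM.

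ILDR2 shares its start region with MAEL, a gene of the piRNA pathway that represses transposons in the germ line. In the annotation used, the first bases of the 2 genes on opposite strands have 99 bases between them. This stretch is shown because MAEL and ILDR2 were both highest in CHLA 05 (chr1:166975483-166975581, plus strand, no capitals).
ILDR2 to MAEL: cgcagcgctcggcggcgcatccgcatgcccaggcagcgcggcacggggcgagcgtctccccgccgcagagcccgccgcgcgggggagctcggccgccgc
It holds 20 CpG pairs at a GC content of 83.8%. In GENCODE v44 the long ILDR2 transcript ENST00000271417 starts at 166975540, inside this stretch, so part of it is ILDR2 exon there. MAEL was at 0.480 TPM for CHLA 02, 1.05 and 0.940 in CHLA 04, 10.3 for CHLA 05, and 0 in both CHLA 06 libraries. The genes past the other end, TADA1 and POGK, were at 23.9 and 51.9 TPM in CHLA 02 and at 54.4 and 103 in CHLA 05, their highest values. TADA1 was at 17.2 and 20.2 TPM in CHLA 06, and POGK at 34.6 and 37.0. RP11-102C16.3 was at 0.

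**Figure D5:**
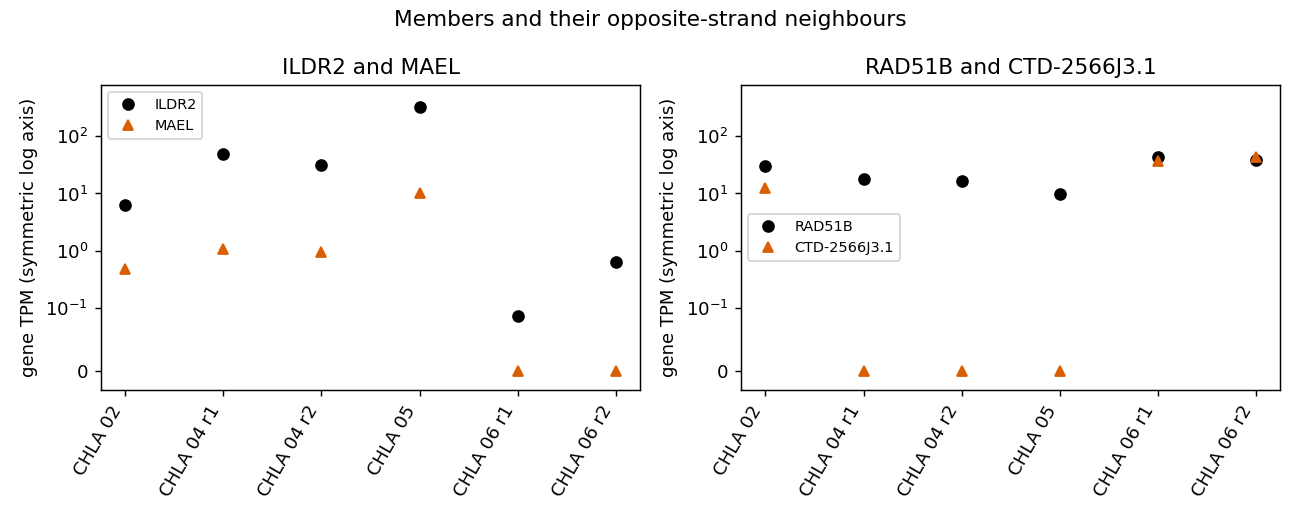
Gene TPM (symmetric log axis) of ILDR2 with MAEL and of RAD51B with the antisense RNA CTD-2566J3.1 in each of 6 libraries. MAEL had its highest value in CHLA 05 (10.3 TPM), and the antisense RNA was at 0 in the CHLA 04 and CHLA 05 libraries, where RAD51B was at 9.63 to 18.2 TPM.

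The neighbours of FAM107A did not reach its levels. KCTD6 was at 10.9 to 22.3 TPM over the 6 libraries. ACOX2, a peroxisomal oxidase of bile acid synthesis, was at 1.15 TPM for CHLA 02, 1.68 and 2.79 in CHLA 04, 2.38 for CHLA 05, and 0.204 and 0.537 in CHLA 06. FAM3D was at 0, and C3orf67 was at 4.73 and 8.89 TPM in CHLA 06 and at 0.258 to 5.31 in the other libraries. Within the span, the opposite-strand FAM3D-AS1 and RP11-475O23.2 were at or below 0.576 TPM.

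The genes whose pattern was most like each member were sought among 16342 others as the smallest root mean square difference of centred log2(TPM + 1) over the 6 libraries. For FAM107A they were TUBB2B (0.34), DMD (0.38), ACSS1 (0.45), LINC01314 (0.48) and its own paralog FAM107B (0.48). TUBB2B, a neural beta-tubulin, was at 435 TPM for CHLA 02, 1713 and 1773 in CHLA 04, 1536 for CHLA 05, and 2.60 and 3.03 in CHLA 06. For ILDR2 they were SOX9 (0.42), TLE4 (0.44), PSD3 (0.54), HES6 (0.55) and SOX5 (0.66). SOX9, a transcription factor of glial precursors, was at 7.71 TPM for CHLA 02, 24.3 and 26.7 in CHLA 04, 228 for CHLA 05, and 0.0657 and 0.0297 in CHLA 06. For RAD51B they were S1PR5 (0.088), RASD1 (0.12), NUP50-AS1 (0.13), CFAP70 (0.14) and STX7 (0.14). Values are smaller for RAD51B because its own range is smaller.

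The other genes of each member's family or pathway were taken from fixed lists, and a gene counted as past the fold if any pair of lines was at least 4-fold apart. Of 19 measured genes of the FAM107 family, outer radial glia and astrocytes, 13 were past the fold, or 68.4% beside 20.5% of all genes, and the 13 remained in number without CHLA 02. In CHLA 04 against CHLA 06, 9 were higher and 1 lower, beside 7.81% and 6.36% of all genes. The median log2 difference was 1.41 beside 0.22 over all genes. FAM107B was at 265 TPM for CHLA 02, 611 and 975 in CHLA 04, 316 for CHLA 05, and 1.14 and 2.63 in CHLA 06. As with FAM107A, its CHLA 04 libraries lay far apart. FABP7, a fatty acid binding protein of radial glia, was at 756 TPM for CHLA 02, 2236 and 4102 in CHLA 04, 1400 for CHLA 05, and 0.566 and 1.43 in CHLA 06. GFAP, the astrocyte filament protein, was at 23.9 TPM for CHLA 02, 45.3 and 47.9 in CHLA 04 and 151 in CHLA 05. It was at 0.0419 and 0.0379 TPM in CHLA 06. The water channel AQP4 was at 34.1 to 51.9 TPM in the group 1 libraries and at 0.228 and 0.0222 in CHLA 06. PDPN was highest in CHLA 04, at 33.8 and 34.1 TPM, and PAX6 in CHLA 05, at 36.9. Other genes of the list, picked after their values were seen, did not follow FAM107A. IL6ST, a cytokine receptor subunit, was at 235 and 230 TPM in CHLA 06 and at 33.2 and 55.1 in CHLA 04, and was the 1 gene past the fold in that direction. The filament protein VIM was highest in CHLA 06 and the integrin ITGB5 was at 22.3 and 22.9 TPM there beside 5.86 and 8.85 in CHLA 04. HOPX, an outer radial glia marker, was at or below 1.29 TPM in all libraries.

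Genes of the glucocorticoid response differed in their order of lines. Of 10 measured, 6 were past the fold, or 60% beside 20.5% of all genes. By line means 2, ZBTB16 and PER1, had the order of FAM107A. In CHLA 05 against CHLA 04, 5 were higher and none lower, beside 4.25% and 2.62% of all genes. The median log2 difference of CHLA 04 over CHLA 05 was -1.57, beside 0.0127 over all genes. FKBP5, a co-chaperone of the glucocorticoid receptor, was at 52.4 TPM for CHLA 02, 7.85 and 7.02 in CHLA 04, 78.5 for CHLA 05, and 38.8 and 52.9 in CHLA 06, so it was lowest in the line where FAM107A was highest. SGK1, a kinase that regulates sodium channels, was at 3.98 and 4.33 TPM in CHLA 04 and at 20.7 in CHLA 05. CEBPD was at 1.52 and 1.60 in CHLA 04 and 13.7 in CHLA 05. MT2A was at 34.2 and 22.3 TPM in CHLA 04 and at 222 and 378 in CHLA 06. KLF9 was at 22.0 TPM in CHLA 05 and at or below 4.02 elsewhere. ZBTB16 was at 11.3 and 5.25 TPM in CHLA 04, 6.69 for CHLA 05, 1.10 for CHLA 02, and 0 for both CHLA 06 libraries. PER1, a clock gene named after its values were seen, was not past the fold, at 101 and 44.7 TPM in CHLA 04, 59.6 for CHLA 05, 54.8 for CHLA 02, and 32.0 and 25.7 in CHLA 06.

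Of 17 measured angulin and tight junction genes 10 were past the fold, or 58.8% beside 20.5% of all genes. In CHLA 05 against CHLA 06, 6 were higher and 2 lower, beside 8.05% and 5.11% of all genes. The median log2 difference was 0.45 beside 0.19 over all genes. The angulins other than ILDR2 had their own patterns. LSR was at 13.2 TPM for CHLA 02, 0 and 0.156 in CHLA 04, 24.2 for CHLA 05, and 18.6 and 16.4 in CHLA 06, and ILDR1 was at 0 in all libraries. MARVELD2, which encodes tricellulin, was at 33.0 and 32.4 TPM in CHLA 04, 2.85 for CHLA 05, and 0.268 and 0.107 in CHLA 06. The claudin CLDN5 was at 4.91 TPM in CHLA 05 and at or below 0.167 elsewhere. The adhesion molecule F11R was at 56.3 and 46.7 TPM in CHLA 06 and at 0 and 0.0599 in CHLA 04. CGNL1 was at 0.197 and 0.275 TPM in CHLA 06 and at 3.59 to 4.62 in CHLA 04 and CHLA 05.

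Homologous recombination genes varied little between lines. Of 32 measured genes 1 was past the fold, or 3.13% beside 20.5% of all genes. That gene, SFR1, which encodes a recombination accessory protein, was at 24.0 TPM for CHLA 02, 4.17 and 6.46 in CHLA 04, 9.47 for CHLA 05, and 24.1 and 30.3 in CHLA 06, the same order of lines as RAD51B apart from CHLA 04 and CHLA 05. RAD51C, RAD51D, XRCC3 and XRCC2, of the same protein family as RAD51B, were present in all libraries. RAD51C was at 29.4 to 49.9 TPM, RAD51D at 15.4 to 26.6, XRCC3 at 15.8 to 32.7 and XRCC2 at 8.25 to 41.0.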

How the data were processed

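RNA of 4 AT/RT cell lines was measured in 6 libraries, each with a file for transcripts and a file for LTR elements. The authors trimmed reads (Trimmomatic, after FastQC), used the RNA-Seq tool of CLCbio Genomics Workbench at default settings for mapping (GRCh38), and deposited TPM on Ensembl release 82 transcripts and, scaled separately, TPM on RepeatMasker LTR elements. Base calling used CASAVA 1.8.2, per the submitters' processing notes. Other tool versions and the strand setting are not given in the sources used here.

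Gene TPM is the sum over a gene's transcripts. Reads were recovered as TPM times length divided by the value of 1 read, and at least 99.8% of values came out whole within 0.1. The recovery was tested on simulated data. Recovered totals were 10265899 to 20520229 reads on transcripts and 355302 to 511408 on LTR elements. Wilson intervals (95%) and floors of 3 reads cover counting error only. No test was run, since each line is 1 biological sample. Lines were compared by the fold of mean TPM plus a pseudocount of 1, with 4-fold as the limit, over genes that reached 1 TPM in a library. No count model was fitted. An element was inside a gene when it lay wholly in the span, sense when on its strand, and counted as having reads at 5 or more in a library. Sequences were read from the GRCh38 genome, whose chromosome lengths cover all coordinates in the files. Of 40 member transcripts, 39 are in GENCODE v44 and 35 have the same ends there (the most abundant FAM107A and ILDR2 transcripts do not). Python 3 with pandas, numpy and scipy was used.

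The members and gene lists were chosen with earlier results of these data known. The text names the members, transcripts with 5% or more of a gene's reads in a library, the 8 elements with most reads inside a gene and those over exons, the genes overlapping a member and the nearest 2 on each side, the 5 genes most like each member, and up to 6 genes of each list past the fold in most pairs together with family members. Where a set was large, some of these are given by counts and ranges. The elements over gene ends were named because they overlap an exon. Alternatives were another pseudocount, fold, filter, scaling and element rule, each technical replicate left out, and, added after its levels were seen, leaving out CHLA 02. Values of some measured items are not reported here.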

Additional observations from a re-analysis of the deposited data

How the results depend on the processing

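Of 143 alternatives tried on 28 values and counts, no fold between lines changed sign. The FAM107A sense share, 56.3% in CHLA 04, fell to 46.3% without its top element, which put antisense above sense. That share rested on 6 of 12 and 15 of 24 reads in the CHLA 04 libraries, too few to say which strand had more. Taking the most abundant transcript (by mean TPM) alone gave 0.486 TPM for FAM107A, 0.0459 for ILDR2 (from 0.356) and 10.8 for RAD51B in CHLA 06. It gave 699 for FAM107A in CHLA 04 (from 1076, within the spread of its libraries), and 284 for ILDR2 and 1.06 for RAD51B in CHLA 05. For RAD51B that transcript was ENST00000469165, and not ENST00000487270, which had the most reads. Quantile normalization gave 1.52 for FAM107A and 44.1 for RAD51B in CHLA 06, and 343 for ILDR2 in CHLA 05. The log2 fold of RAD51B between CHLA 06 and CHLA 05, 1.99, passed the limit with a pseudocount of 0.1 (2.09), with median-ratio scale factors (2.16) and, as 1.99, with a limit of 2-fold. Homologous recombination genes past the fold numbered 10 at 2-fold, 2 with a pseudocount of 0.1 and 0 with 2, and the angulin and tight junction genes 5 with a pseudocount of 2. The share of LTR reads on elements of FAM107A in CHLA 04 rose from 0.00404% to 0.541% with MLT1J included. Without exon elements that of ILDR2 in CHLA 05 went from 0.523% to 0.0244%, and its ratio to the gene from 3.27 to 0.234, and without its top element the share was 0.153%. RAD51B in CHLA 06 went from 2.49% to 0.852% without THE1C-int, which raised its sense share from 8.08% to 23.3%. The FAM107A sense share was 79.4% away from genes on the other strand. Elements with reads in FAM107A numbered 11 at 1 read, 0 at 10 reads and 9 above 2 TPM, and in RAD51B 87 at 1 read and 84 above 2 TPM. The share of ILDR2 on its long transcript was 84.9% by TPM. Causes were not tested.

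Leaving out 1 technical replicate at a time gave 792 to 1361 TPM for FAM107A in CHLA 04 and 0.0871 to 0.624 TPM for ILDR2 in CHLA 06. The log2 fold of RAD51B ran from 1.93 to 2.06, past the limit without the second CHLA 06 library. Homologous recombination genes past the fold ran from 0 to 2, and FAM107A elements with reads from 2 to 4. Leaving out CHLA 02 left all 4 list counts as they were. No paired analysis was possible because no result comes from a test and the numbers of CHLA 04 and CHLA 06 mark technical replicates of different lines. The depth limits ILDR2 and FAM107A in CHLA 06, with at most 32 reads, and RAD51B transcripts.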
